A study of Mus musculus with 72 samples.

Results

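The transcripts of 8 genes of the Smad branch of TGF-β signalling were followed in 4T1 tumours: Smad2, Smad3, Smad4, Smad6, Smad7, Id1, Id2 and Tgif1. They were taken by gene symbol from the deposited count table, where they are 8 of 1224 genes and 11 of 1278 amplicons, and all 8 were among the 1038 genes that passed the filter on low counts. 4T1 is a breast cancer line that arose in a BALB/c mouse, and the tumours came from 36 female BALB/c mice aged 6 to 12 weeks. The cells were injected into the thigh on day -6, the mice were treated on day 0 and their tumours were taken on day 6; the sample labels call the tissue an orthotopic tumour, although the design places it in the thigh muscle. The mice formed 4 groups of 9: bintrafusp alfa alone (BA, 492 µg), isotype antibody plus radiation (RT), BA with radiation (BA+RT), and the isotype antibody alone (control, 400 µg). BA, which the labels also give by the code M7824, is an antibody against PD-L1 fused to a receptor ectodomain that traps TGF-β. The labels give no radiation dose, no BA dose for BA+RT mice and no isotype dose for RT mice. They do not say whether BA+RT mice also received isotype antibody. Comparisons of single treatments with control ask what each changed, BA+RT against each single treatment asks what the second treatment added, and the interaction asks whether BA changed irradiated tumours by as much as unirradiated ones.

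TGF-β and activin receptors phosphorylate Smad2 and Smad3, which join the common partner Smad4, enter the nucleus and bind DNA. Smad6 and Smad7 are inhibitory Smads: Smad7 blocks TGF-β and BMP receptors, and Smad6 acts mainly on the BMP branch; both genes are known to be switched on by the pathways that they restrain. Id1 and Id2 encode proteins that bind and disable basic helix-loop-helix transcription factors, and are known targets of BMP and TGF-β signals; Tgif1 encodes a homeodomain corepressor that binds Smads and recruits histone deacetylases. Phosphorylation and location of the Smad proteins were not measured, so the values below are of their transcripts only.

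Smad6 and Id2 were the 2 members called higher in BA+RT than in RT tumours, where 3.66% of all tested genes were called higher. Neither was called there when scaled by reference genes or without BA+RT mouse 40, as given below. Their promoters are shown because Smads bind short boxes in such regions. The RefSeq table (GRCm38.p6), which gives 250 bases before and 50 after a transcript start, held promoters for 4 of the 8 genes (Id2, Smad3, Smad6 and Tgif1). The palindromic Smad box GTCTAGAC, the core CAGAC and the GC-rich site GGCGCC were searched on both strands; capitals below mark the match.
Smad6 promoter, minus strand, 9:64022010-64022309: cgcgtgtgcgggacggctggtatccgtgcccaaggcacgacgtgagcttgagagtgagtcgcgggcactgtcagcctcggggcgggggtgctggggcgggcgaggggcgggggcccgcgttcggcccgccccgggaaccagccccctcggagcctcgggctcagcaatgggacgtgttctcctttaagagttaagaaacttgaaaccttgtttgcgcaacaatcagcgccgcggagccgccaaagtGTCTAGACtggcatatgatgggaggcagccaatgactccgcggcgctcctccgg
Id2 promoter, minus strand, 12:25096043-25096342: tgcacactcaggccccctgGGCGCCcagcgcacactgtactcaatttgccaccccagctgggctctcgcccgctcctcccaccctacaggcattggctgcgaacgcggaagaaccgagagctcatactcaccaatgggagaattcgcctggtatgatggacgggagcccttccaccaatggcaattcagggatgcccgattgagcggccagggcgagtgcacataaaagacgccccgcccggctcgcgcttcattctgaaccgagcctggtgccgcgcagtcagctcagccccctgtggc
The Smad6 window held 1 palindromic box, which begins 4 bases before the start and is present in 70 of 32851 promoters (0.213%). The Id2 window held 1 GGCGCC, which 11.9% of promoters hold, and no CAGAC, which 49.6% hold; the Smad3 window held none of the 3, and CAGAC was in 3 of 5 windows of Tgif1 starts. A match describes the letters and was not tested for binding.

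A member's amplicon reads a short stretch of its transcript, and positions are on GRCm38. Those of Smad2 (18:76262621-76262715, exon 2 of 11 of the longest coding transcript), Smad4 (18:73675789-73675883, exon 3 of 12) and Smad7 (18:75394092-75394193, exon 4 of 4) lie in coding sequence. Amplicons in 3' untranslated regions stand for Smad3 (9:63649463-63649557, exon 9 of 9), Id1 (2:152737276-152737372), Id2 (12:25094442-25094536, exon 4 of 4) and Tgif1 (17:70844244-70844338, exon 3 of 3). The Smad6 amplicon (9:64021886-64022005) lies in exon 1 of 4, in the 5' untranslated region of the longest transcript and in the coding region of another. Only 1 of 4 coding transcripts of Smad3 and 5 of 9 of Tgif1 contain the amplicon. For Id2 it is in 2 of 3, for Smad7 in 3 of 4 and for Smad2 in 6 of 7. Other isoforms of these genes were not read. Smad2, Smad3 and Tgif1 are on both panels, and the panel with the larger total count was used.

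Each library was read on 1 of 2 targeted panels, so the 36 mice gave 72 libraries; totals were 959532 to 2616197 counts on panel 1 and 314621 to 841046 on panel 2. Panel 2, which gave 7 of the 8 members' values, had 314621 to 641203 counts in BA, 546144 to 775133 in RT, 591551 to 821436 in BA+RT and 341400 to 841046 in control tumours. Levels are CPM (counts scaled to the total of a panel) after TMM scaling, which sets a gene relative to the bulk of that panel's genes, and since amplicons differ in yield, levels are compared between groups and not between genes. A gene was called when edgeR's quasi-likelihood test gave a Benjamini-Hochberg adjusted p below 0.05 over the 1038 genes; log2 fold changes are the first-named group over the second, with a standard error (SE), and intervals are 2 SE either side. The tumours are bulk tissue, so fewer cells of a type and less RNA per cell cannot be told apart. The summed CPM of 2 skeletal muscle genes (Mb and Myod1, 2 of 9 listed) had medians of 1491 in BA, 1107 in RT, 1503 in BA+RT and 429.6 in control tumours. It ran from 347.3 to 3736 in BA and from 364.6 to 2393 in RT tumours. BA+RT mouse 45 stood apart with 5680 CPM against 499.7 to 2671 in its group's other mice, and control mouse 6 with 4947 CPM against 255.9 to 836.5. The part of this sum in the members' differences between groups was not tested.

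Called changes among the 8 transcripts lay between -0.27 and 0.45 on the log2 scale. In BA against control tumours Id2, Tgif1 and Id1 were called higher, so 3 of 8 members were called (37.5%), beside 27% of all tested genes; higher calls alone were 12.5% of all genes. In RT against control 1 of 8 was called, Smad2, lower, beside 41.6% of all genes, with 20.5% higher and 21.1% lower. BA+RT against control again gave only Smad2, lower, beside 47.6% of all genes called and 24.2% called lower. In BA+RT against RT, Smad6 and Id2 were called higher, 2 of 8, beside 10.8% of all genes, 3.66% called higher and 7.13% lower. BA+RT against BA had 4 of 8 called lower, Smad2, Smad4, Id2 and Tgif1, beside 53.5% of all genes and 26.4% called lower. The median log2 fold change of the 8 was 0.17 for BA, -0.09 for RT and 0.06 for BA+RT, each against control, where the medians over all tested genes were 0.00, -0.01 and 0.01. All 8 values were above 0 in BA against control, as were 50.4% of those of all genes; with the reference gene factors Smad7 was -0.07, and on panel 1 Smad2 was -0.04. Of the 8 values 7 are from panel 2, which read higher than panel 1 in this comparison for 49 of the 51 genes tested on both. These comparisons share groups, so their counts are not independent of each other.

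Some calls changed with the scaling. With factors from the 9 reference genes marked on each panel, 373 genes were called higher and 96 lower in RT against control, where TMM gave 213 and 219. The split was 342 higher and 173 lower in BA+RT against control (TMM 243 and 251), 23 and 89 in BA+RT against RT (TMM 38 and 74), and 404 and 185 in BA+RT against BA (TMM 281 and 274). Of the members, that scaling called Id2 higher in BA, Id1 higher in RT, and Smad3 and Id2 higher with Smad2 lower in BA+RT, each against control. It called Smad3 higher in BA+RT against RT, and Smad3 and Smad7 higher with Smad2 lower in BA+RT against BA. The calls of Id2 with BA and of Smad2 in BA+RT were thus made under both scalings.

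**Figure D1:**
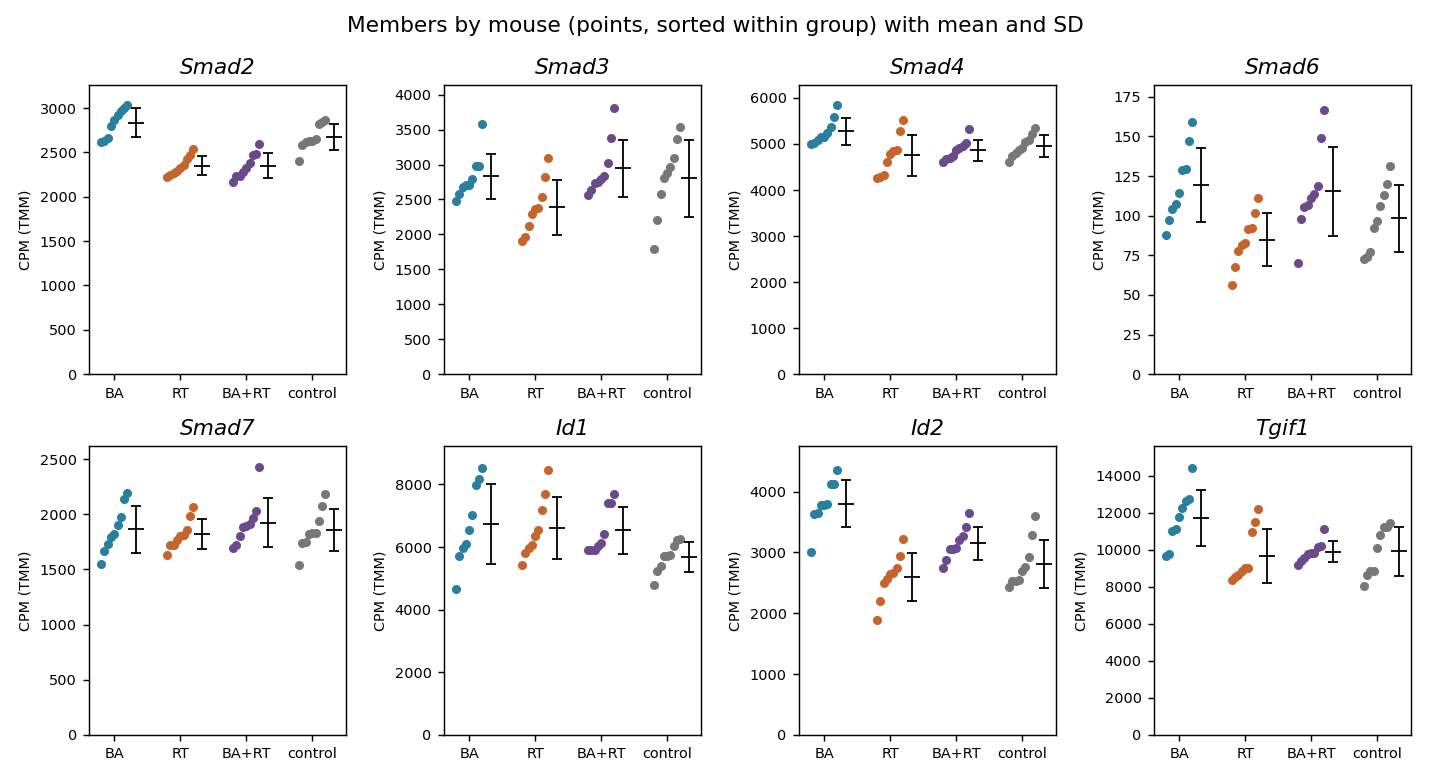
CPM after TMM scaling (y axis, linear from 0) of each of the 8 genes in the 9 mice of each group (x axis; points sorted within a group), with mean and SD beside them. Smad2 lies lower in both irradiated groups and Id2 lies highest in BA tumours, while the groups of Smad7 overlap throughout.

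Smad2, a receptor-activated Smad, was lower in both irradiated groups. It had 2620 to 3034 CPM (median 2871) in BA, 2225 to 2542 (2324) in RT, 2171 to 2599 (2320) in BA+RT and 2407 to 2865 (2634) in control tumours. All 9 BA+RT mice lay below the lowest BA mouse. So did all 9 RT mice, but RT and BA were not compared, so no test and no share of all genes stands beside that. Of the 5 pairwise comparisons of the 8 members, Smad2 in BA+RT against BA was the single one whose groups did not overlap; 11.7% of all tested genes had no overlap between BA+RT and BA. In the other comparisons that share was 2.79% for BA, 7.61% for RT and 7.23% for BA+RT, each against control, and 0.771% for BA+RT against RT. Between BA+RT and RT the values interleaved. Smad2 fell by 0.19 on the log2 scale in RT against control (SE 0.04, edgeR adjusted p = 4.04e-04), and on the linear scale it fell by 12.1%. In BA+RT it fell by 0.18 against control (SE 0.04, adjusted p = 3.78e-04) and by 0.27 against BA (SE 0.04, adjusted p = 1.85e-06). BA alone gave 0.08 against control (interval 0.00 to 0.17, adjusted p = 0.128), and BA+RT against RT gave 0.00 (interval -0.08 to 0.08). With factors from the 9 reference genes of each panel, the Smad2 log2 fold change in RT against control was -0.07 (adjusted p = 0.141) and no longer called, while those in BA+RT stayed called at -0.15 against control and -0.16 against BA. That scaling moved the median of all genes to 0.15 in RT against control, 0.12 in BA+RT against control and 0.14 in BA+RT against BA.

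The summed CPM of the 2 measured epithelial tumour genes (Epcam and Muc1, 2 of 8 listed, neither at 0 in any group) was 7821 to 10720 in BA, 5599 to 9441 in RT, 4390 to 8636 in BA+RT and 9414 to 14490 in control tumours. In the irradiated groups the 2 genes went opposite ways. Epcam, an epithelial adhesion molecule, had log2 fold changes against control of -0.30 in BA, -0.81 in RT and -0.75 in BA+RT, all called lower (adjusted p up to 0.0384). Muc1, a membrane mucin, was called lower in BA (-1.0) and higher in RT (2.32) and BA+RT (1.86), with adjusted p up to 0.00119. Across mice, after group means were subtracted, Smad2 correlated with the sum at Pearson r = 0.49 (36 mice, which share the panels' scaling). The r was 0.66 for Smad3, 0.61 for Tgif1, 0.54 for Smad7, 0.47 for Smad4, 0.45 for Smad6, 0.13 for Id1 and 0.08 for Id2. With the sum of 2 endothelial genes (Eng and Kdr, 2 of 10 listed) the members' r ran from -0.05 for Id2 to 0.54 for Smad7. With the fibroblast sum given below it ran from -0.52 for Id2 to 0.15 for Smad4, with -0.51 for Smad3. Smad2 had 0.04 and -0.15 with these 2 sums. The part of the 3 sums in the Smad2 result was not tested.

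Smad3, the other TGF-β-activated Smad, varied more between mice. It had 2482 to 3576 CPM (median 2709) in BA, 1899 to 3099 (2370) in RT, 2559 to 3805 (2797) in BA+RT and 1790 to 3531 (2874) in control tumours, and all groups overlapped. In 9 of 9 BA+RT mice Smad3 exceeded the median of the RT mice, with a log2 fold change of 0.30 (SE 0.10, adjusted p = 0.0531), and in RT against control it was -0.23 (SE 0.10, adjusted p = 0.069). Neither passed the threshold, but the first was called in 10 of 13 alternative settings and the second in 5 of 13. On panel 2, with the same amplicon position, neither was called: 0.25 (adjusted p = 0.0782) and -0.18 (adjusted p = 0.114). Over the alternatives the RT value ran from -0.295 to -0.0445, with adjusted p from 0.0105 to 0.655. Without control mouse 6, the lowest of its group, the RT value was -0.29 (adjusted p = 0.0105), and without BA+RT mouse 45 it was -0.26 (adjusted p = 0.0392). BA against control gave 0.02 (interval -0.19 to 0.22).

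Smad4, the shared partner, had log2 standard errors of 0.05, beside 0.04 for Smad2 and up to 0.15 for Smad6. Its CPM was 4992 to 5848 (median 5153) in BA, 4260 to 5518 (4792) in RT, 4599 to 5328 (4870) in BA+RT and 4618 to 5356 (4903) in control tumours. Of the 9 BA+RT mice, 7 lay below the lowest BA mouse, and Smad4 fell by 0.12 in BA+RT against BA (SE 0.05, adjusted p = 0.0307). This was called in 9 of 12 alternatives; without BA+RT mouse 40 the value was -0.11 (adjusted p = 0.0551), with library totals -0.08 (adjusted p = 0.0785), and with the reference gene factors the value was -0.01 (adjusted p = 0.864). Against control the 3 treated groups gave 0.09 for BA, -0.06 for RT and -0.03 for BA+RT, none called.

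Of the inhibitory Smads, Smad6 differed between BA+RT and RT and Smad7 did not pass the test in any comparison. Smad6 was the scarcest member, with 24 to 112 counts a library, and had 87.6 to 159 CPM (median 114) in BA, 56.4 to 111 (83.1) in RT, 70.2 to 167 (111) in BA+RT and 72.8 to 131 (96.8) in control tumours. Of 9 BA+RT mice, 5 exceeded the highest RT mouse. Smad6 rose 1.36-fold in BA+RT against RT (log2 fold change 0.45, SE 0.14, adjusted p = 0.038). The call held in 8 of 12 alternatives, 1 of them limma on the deposited rlog values, where the difference was 0.14 (adjusted p = 0.046). Without BA+RT mouse 37, the highest of its group, the log2 fold change was 0.37 (adjusted p = 0.0975), without BA+RT mouse 40 it was 0.40 (adjusted p = 0.083), with the reference gene factors 0.36 (adjusted p = 0.0782) and with only the groups compared 0.45 (adjusted p = 0.0586). Against control Smad6 had 0.29 for BA (SE 0.15, adjusted p = 0.162) and -0.21 for RT (SE 0.15, adjusted p = 0.266).

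Smad7, the inhibitor of TGF-β receptors, had 1551 to 2193 CPM (median 1821) in BA, 1632 to 2068 (1807) in RT, 1694 to 2429 (1889) in BA+RT and 1541 to 2187 (1833) in control tumours. The 4 medians lie within the range of every group. Its log2 fold changes against control were 0.00 for BA (interval -0.13 to 0.14), -0.03 for RT (-0.17 to 0.10) and 0.05 for BA+RT (-0.08 to 0.19). BA+RT against RT gave 0.08 (interval -0.05 to 0.22) and BA+RT against BA gave 0.05 (-0.09 to 0.18), which with the reference gene factors was 0.15 (adjusted p = 0.0157).

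Of the Id genes, Id2 was highest in BA tumours, at 3009 to 4364 CPM (median 3778), with 1887 to 3220 (2651) in RT, 2751 to 3642 (3075) in BA+RT and 2437 to 3603 (2703) in control tumours. Of 9 BA mice, 8 lay above the highest control mouse, and all 9 BA+RT mice lay above the medians of RT and of control. Id2 rose 1.35-fold in BA against control (log2 fold change 0.44, SE 0.08, adjusted p = 1.3e-04) and 1.21-fold in BA+RT against RT (0.28, SE 0.08, adjusted p = 0.0228). In BA+RT it fell by 0.27 against BA (SE 0.08, adjusted p = 0.00568), and against control it was 0.16 (SE 0.08, adjusted p = 0.0975) and not called. The BA call held in 12 of 12 alternatives, with adjusted p values up to 8e-04. The call against RT held in 10 of 12 and was lost without BA+RT mouse 40 (0.25, adjusted p = 0.0501) and with the reference gene factors (0.21, adjusted p = 0.0957). With those factors the call against BA was lost too (-0.16, adjusted p = 0.0812).

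Id1 had 4672 to 8523 CPM (median 6539) in BA, 5417 to 8459 (6346) in RT, 5898 to 7700 (6133) in BA+RT and 4798 to 6270 (5726) in control tumours. In BA and in RT 5 of 9 mice exceeded the highest control mouse, and in BA+RT 4 of 9 did, while 1 BA mouse lay below every control. Id1 rose 1.19-fold in BA against control (log2 fold change 0.25, SE 0.09, adjusted p = 0.045), a call held in 8 of 12 alternatives with adjusted p from 0.00947 to 0.237. RT against control gave 0.22 (SE 0.09, adjusted p = 0.058) and BA+RT against control 0.20 (SE 0.09, adjusted p = 0.0726), so the treated groups lay within 0.05 of each other on that scale and only 1 passed the threshold; the difference between BA+RT and BA was -0.05 (interval -0.23 to 0.14). After group means were subtracted, the r between Id1 and Id2 was 0.01 over 36 mice.

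Markers of other cell types also differed between BA and control tumours. Of 7 tested cytotoxic and NK cell genes 6 were called higher and 1 lower, and of 8 T cell genes 3 were higher and 0 lower. Of 7 fibroblast genes 0 were higher and 5 lower, and of 5 macrophage genes 3 were higher and 1 lower. Among all tested genes 12.5% were higher and 14.5% lower. The 7 of 8 listed cytotoxic and NK cell genes on the panels summed to 449 to 1395 CPM in BA, 141 to 227 in RT, 189 to 1303 in BA+RT and 115 to 346 in control tumours. All 8 listed T cell genes summed to 84.7 to 322 CPM in BA, 12.7 to 158 in RT, 26.6 to 121 in BA+RT and 36.4 to 186 in control tumours. The 7 of 9 fibroblast genes measured summed to 42060 to 60950 CPM in BA, 38550 to 89880 in RT, 42510 to 78080 in BA+RT and 58640 to 108500 in control tumours, and no gene of these 3 lists was at 0 in a whole group. The 5 of 6 macrophage genes measured summed to 3878 to 4803 CPM in BA, 3563 to 5003 in RT, 3717 to 4680 in BA+RT and 3129 to 4248 in control tumours. After group means were subtracted, Id2 correlated with the fibroblast sum at r = -0.52, with the T cell sum at 0.18 and with the cytotoxic sum at 0.11, and Id1 with the T cell sum at -0.48, over 36 mice. Their part in the Id2 and Id1 results was not tested, nor was that of the lower panel 2 totals in BA tumours.

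Tgif1, the Smad corepressor, was high in BA tumours. It had 9670 to 14434 CPM (median 11805) in BA, 8399 to 12209 (9004) in RT, 9186 to 11128 (9823) in BA+RT and 8042 to 11439 (10128) in control tumours. All 9 BA+RT mice lay below the BA median and 5 of 9 BA mice above the highest control. Tgif1 rose 1.18-fold in BA against control (log2 fold change 0.24, SE 0.08, adjusted p = 0.026), and in BA+RT it fell by 0.24 against BA (SE 0.08, adjusted p = 0.0125). RT and BA+RT against control gave -0.03 and 0.00. The BA call held in 10 of 13 alternatives; it was lost without control mouse 6 (0.20, adjusted p = 0.0633), with the reference gene factors (0.17, adjusted p = 0.0804) and on the other panel's amplicon (0.08, adjusted p = 0.487). The call in BA+RT against BA was lost with the reference gene factors (-0.14, adjusted p = 0.107).

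**Figure D2:**
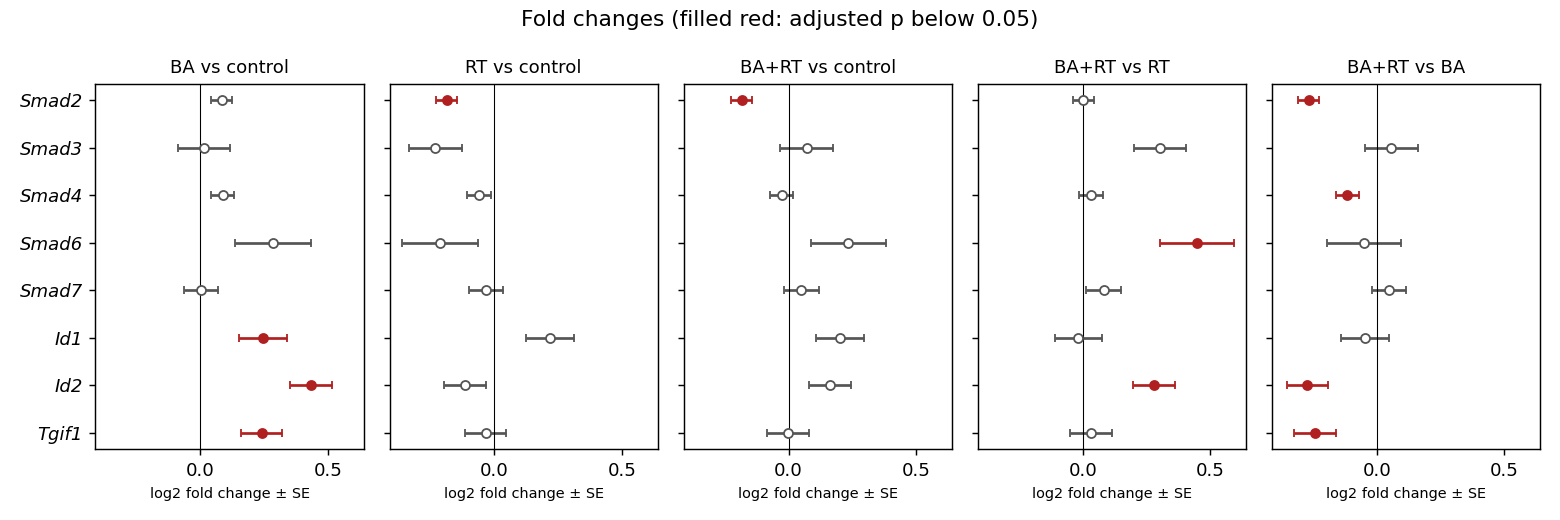
Log2 fold changes ± SE (x axis) of the 8 genes (rows) in the 5 pairwise comparisons (panels); filled red points have an edgeR adjusted p below 0.05. Called points range from -0.27 for Id2 and Smad2 in BA+RT against BA to 0.45 for Smad6 in BA+RT against RT.

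The interaction was called for none of the 8 genes by edgeR, DESeq2 or limma, beside 8.29% of all tested genes by edgeR (3.37% higher and 4.91% lower). At an unadjusted p under 0.05 there were 0 members by edgeR, 2 by DESeq2 and 1 by limma on the deposited rlog values. The largest values were 0.29 for Smad3 (interval 0.00 to 0.58, adjusted p = 0.236) and -0.26 for Id1 (interval -0.53 to 0.00, adjusted p = 0.228). Thus the calls of Id2, Id1 and Tgif1 with BA in unirradiated tumours, and of Smad6 with BA in irradiated ones, were not shown to differ from the change with BA in the other setting.

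Of the 8 genes, 3 could be read again on the other panel. Smad2 and Smad3 have the same amplicon position on both panels, and Tgif1 amplicons start 223 bases apart. Within groups the 2 readings correlated over 36 mice at r = 0.61 for Smad2, 0.96 for Smad3 and 0.91 for Tgif1. On panel 1, Smad2 was lower by the same test in RT against control (-0.28, adjusted p = 1.35e-05), BA+RT against control (-0.34, adjusted p = 3.69e-07) and BA+RT against BA (-0.31, adjusted p = 2.12e-06). Panel 1 also put Tgif1 lower in RT (-0.19, adjusted p = 0.0343) and BA+RT (-0.18, adjusted p = 0.0445) against control, where panel 2 gave values near 0. Of 51 genes tested on both, 49 had a higher log2 fold change on panel 2 in BA against control, with a median difference of 0.09, 46 did in RT against control (0.07) and 45 did in BA+RT against control (0.10). In BA+RT against RT and BA+RT against BA the median differences were 0.02 and 0.01. For the members, BA against control gave 0.08 on panel 2 and -0.04 on panel 1 for Smad2, 0.11 and 0.02 for Smad3, and 0.24 and 0.08 for Tgif1.

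**Figure D3:**
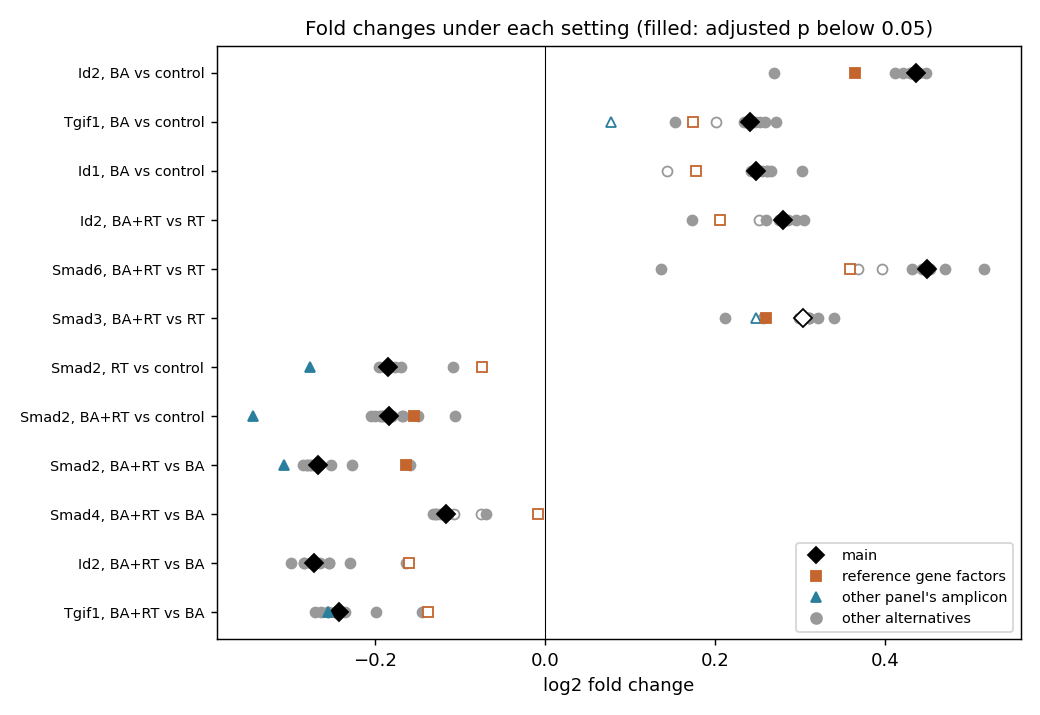
Log2 fold changes (x axis) of each called member and comparison, and of Smad3 in BA+RT against RT, under the reported fit (black diamonds), reference gene factors (orange squares), the other panel's amplicon (blue triangles) and all other alternatives (grey circles); filled symbols have an adjusted p below 0.05. Id2 in BA against control and Smad2 in BA+RT against control and against BA stay filled in each setting.

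Between mice of the same group most members varied in the same direction, with Id1 at the low end. After group means were subtracted, the 28 pairs of members had a median Pearson r of 0.29 over 36 mice, beside -0.01 over all 538203 pairs of tested genes. Most member pairs lie on panel 2, whereas the pairs of all genes lie within and between both panels. Pairs within panel 2 were not summarised alone. Smad3 and Smad7 had the highest r, 0.70, and Smad3 and Id1 the lowest, -0.12. BA+RT mouse 37 had the highest value of its group for 6 of the 8 genes, RT mouse 22 for 4, and control mouse 6 and BA+RT mouse 45 each had the lowest value of their group for 4. The 2 muscle genes' summed CPM was 499.7 in BA+RT mouse 37, the lowest of its group, and 364.6 in RT mouse 22, likewise the lowest, whereas mice 6 and 45 had the highest. Within groups that sum correlated with Smad3 at r = -0.69, Smad7 at -0.66, Smad6 at -0.57 and Tgif1 at -0.45, and with Id1 at -0.08; its part in the shared variation was not tested. The points share a library and its scaling.

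**Figure D4:**
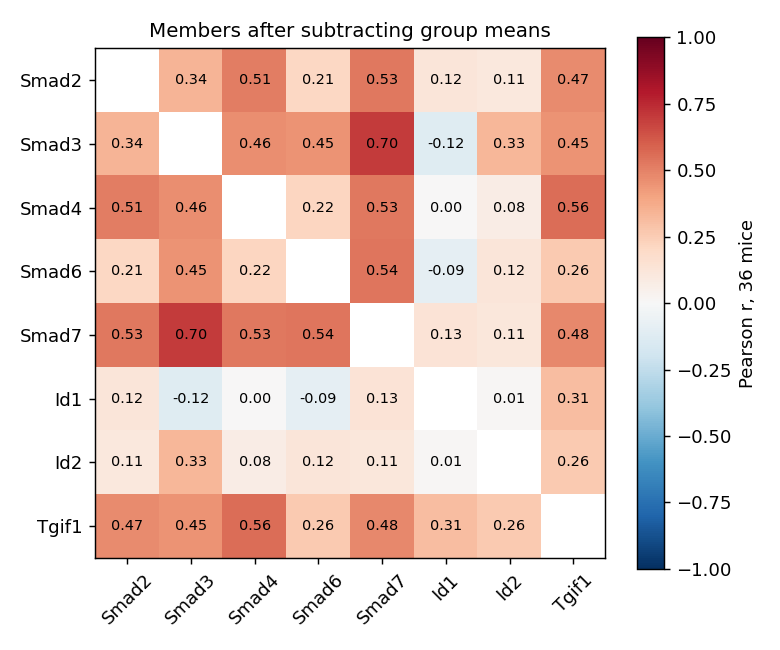
Pearson r between members over 36 mice after subtracting group means (colour scale from -1 to 1, value in each cell). Smad2, Smad3, Smad4, Smad7 and Tgif1 form positive pairs of 0.34 or more, and Id1 stays between -0.12 and 0.31 with every other member.

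Likeness to other genes was measured by the same r over 36 mice and 1037 other genes, as a description. Smad3 was most like Nfat5 (r = 0.88), an osmotic stress transcription factor, and Crebzf (0.85). Tgif1 followed Cebpb (0.80), a basic leucine zipper factor, and Btg3 (0.79), and Smad7 followed Sox4 (0.78) and the cell cycle inhibitor gene Cdkn1b (0.75). For Smad4 the leading genes were Lrba (0.76) and Jun (0.76), for Smad2 Pspc1 (0.69) and Irf9 (0.60), and for Smad6 Gata3 (0.68) and Dnaja1 (0.68). The values were lower for Id2 and Id1: Nt5e (0.59) and the arginase gene Arg1 (0.57) for Id2, Traf4 (0.54) and Klf2 (0.47) for Id1.

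Other genes of the pathway, from lists without the 8 members, set the members beside their ligands, receptors and targets. Over all tested genes, 12.5% were called higher and 14.5% lower in BA against control. The shares were 20.5% and 21.1% in RT, and 23.4% and 24.2% in BA+RT, each against control. Of 5 tested ligands 0 were called higher and 2 lower in BA, 0 and 1 in RT and 0 and 3 in BA+RT, each against control, where their median log2 fold change in BA+RT was -0.27. Inhba, the activin A subunit gene, fell by 0.60 (adjusted p = 3.53e-06) and Tgfb1, the TGF-β1 ligand, by 0.27 (adjusted p = 0.00291) in BA+RT against control. Of 6 receptors and co-receptors, 2 were higher in BA, 3 higher and 1 lower in RT, and 2 higher in BA+RT. With the reference gene factors 0 were called in BA, 4 were higher and 0 lower in RT, and 1 was higher in BA+RT. Those factors called 373 of all 1038 genes higher and 96 lower in RT. Tgfbr2, the type II receptor that binds TGF-β, rose by 0.33 in BA+RT against control (adjusted p = 7.1e-06), and Acvrl1, an endothelial type I receptor, by 0.23 (adjusted p = 0.0494). Acvrl1 was called in 4 of 12 alternatives and had 0.14 without BA+RT mouse 45 (adjusted p = 0.166).

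Among 7 extracellular and membrane modulators, 2 were higher and 4 lower in BA, 2 and 1 in RT, and 1 and 1 in BA+RT, against control. The shares of all tested genes were 12.5% higher and 14.5% lower in BA, 20.5% and 21.1% in RT, and 23.4% and 24.2% in BA+RT. Ltbp1, which tethers latent TGF-β in the matrix, rose by 0.37 in BA+RT (adjusted p = 0.0105), and Itgav, an integrin chain that releases latent TGF-β, fell by 0.14 (adjusted p = 0.0494; 0.00 with the reference gene factors, adjusted p = 0.948). Of 7 nuclear cofactors and relatives, 2 were higher in BA, 1 higher and 2 lower in RT, and 1 higher in BA+RT; that 1 was Crebbp, a histone acetyltransferase that Smads recruit (0.19, adjusted p = 0.00367). With the reference gene factors 3 of the 7 were higher and 0 lower in RT, beside 373 and 96 of all 1038 genes. Smad1 and Smad5, the BMP-activated Smads on panel 2, were named after their values were seen: in RT against control Smad1 rose by 0.16 (adjusted p = 0.0416) and Smad5 fell by 0.16 (adjusted p = 0.00141), and Smad5 rose by 0.16 in BA+RT against RT (adjusted p = 0.00718). The Smad1 call was lost without control mouse 6 (0.13, adjusted p = 0.08), without the filter (0.15, adjusted p = 0.0566) and with only the groups compared (0.15, adjusted p = 0.0822). With the reference gene factors Smad1 had 0.27 (adjusted p = 1.91e-04), and Smad5 had -0.05 in RT against control (adjusted p = 0.44) and 0.09 in BA+RT against RT (adjusted p = 0.304), neither called.

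Of 26 tested genes known as TGF-β or Smad targets, 3 were called higher and 8 lower in BA against control, 11 and 1 in RT, and 9 and 5 in BA+RT. Of all tested genes, 12.5% were higher and 14.5% lower in BA, 20.5% and 21.1% in RT, and 23.4% and 24.2% in BA+RT. In BA+RT against RT 1 target was higher and 5 lower, where 3.66% of all tested genes were higher and 7.13% lower. In BA+RT against BA 11 targets were higher and 0 lower, where 27.1% of all tested genes were higher and 26.4% lower. The targets' median log2 fold changes against control were -0.16 for BA, 0.19 for RT and 0.03 for BA+RT. With the reference gene factors the target counts were 1 and 9 for BA, 14 and 0 for RT, and 9 and 4 for BA+RT, against control. They were 19 and 0 for BA+RT against BA. Over all 1038 genes those factors called 115 and 145 in BA, 373 and 96 in RT, and 342 and 173 in BA+RT, against control. In BA+RT against BA they called 404 and 185. Cdkn1a, which encodes the cell cycle inhibitor p21 and is also a p53 target, rose by 1.31 in BA+RT against control (adjusted p = 9.73e-07), and Myc rose by 0.48 (adjusted p = 1.18e-07). In BA against control 3 of these targets were thus higher and 8 lower, and 3 of the 8 members were higher and 0 lower. With the reference gene factors Id2 was the only member called there. The target list was not split by the direction in which TGF-β moves each gene. Of the targets called lower in BA, 2 (Acta2 and Col1a2) are also on the fibroblast list.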

How the data were processed

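Per the labels, tumour RNA of each of 36 mice was read with a targeted immuno-oncology panel and a custom panel, giving 72 libraries. The authors' deposited table holds whole-number counts per amplicon, not normalized, with both panels' libraries of a mouse in 1 column; a second deposited table holds log2-scale values (regularized log, rlog) and served 1 alternative. The submitters' processing notes name DESeq2 without a version and the builds GRCm38 and GRCh38; no source used here names the aligner or the counter, or says whether reads or molecular barcodes were counted. Amplicon positions were read on GRCm38, where 1277 of 1278 amplicons, and all 11 of the members, lie inside the mouse gene named beside them. The 10 genomic DNA control entries (19 counts, 2.32e-05% of all) were left out, and 0 columns belonged to other samples.

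Each panel was fitted alone with all 4 groups in edgeR 4.0.16 (R 4.3.3), using TMM factors, filterByExpr by group and its robust quasi-likelihood test (two-sided). That test was first run on counts simulated for BA against control with a preset spread. The run does not measure its error rate in these data. Adjusted p values are Benjamini-Hochberg over 1038 genes and were called below 0.05; log2 CPM used a prior count of 2. Alternatives were DESeq2 1.42.0, limma 3.58.1 on the rlog values, library totals, reference gene factors, no filter, the other panel's amplicon, only the groups compared, and single mice left out. Replicate libraries differed by more than sampling noise in all 288 pairs (chi-square at least 6.32 per degree of freedom). The p values set differences between groups against the spread between mice, estimated over all 4 groups. Each mouse gave 1 library a panel, so that spread includes library preparation. All 8 members are named whatever their values; of other pathway lists, up to 2 called genes with the smallest adjusted p in BA+RT against control, and for each member the 2 genes of highest r. The members, lists and tests were chosen with earlier results of these data known. Promoters are from RefSeq.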

Additional observations from a re-analysis of the deposited data

Results flagged for a closer look

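In each of 32 sets of 9 mice (8 genes in 4 groups) the gap between an extreme mouse and its neighbour was compared with the range of the set, and 2 sets exceeded Dixon's 95% limit, which chance exceeds in about 1 in 20 sets. BA mouse 10 had 3576 CPM of Smad3 against 2975 CPM in the next-highest BA mouse, a gap of 0.549 of the range. BA+RT mouse 37 had 2429 CPM of Smad7 against 2031 CPM in the next-highest BA+RT mouse, a gap of 0.541 of the range. The genomic DNA control entries, which enter no comparison, held 7 counts in RT and 10 counts in BA+RT libraries, with 1 in BA and 1 in control libraries, each summed over 9 mice and both panels.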

How the results depend on the processing

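Among single-gene values under other settings, 595 kept their direction and their side of the threshold, 31 gained a call, 33 lost one and 35 changed sign; no value called in the reported fit changed sign. Apart from the fits with a mouse left out, counts of called members are listed for settings that changed them more than 1.5-fold. In BA against control 3 members were called, and 1 with the reference gene factors. In RT against control the count was 1, but 3 with DESeq2 and with library totals, and 2 with the other panel's amplicons and with only the groups compared. In BA+RT against control the count was 1, but 3 with the reference gene factors, and 2 with library totals, with the other panel's amplicons and with only the groups compared. In BA+RT against RT it was 2, and 1 with the reference gene factors, which called Smad3 there and neither Smad6 nor Id2. Smad3 was called there in 10 of 13 alternatives, and DESeq2 called 3 members, a change within that limit. Leaving out control mouse 8 or BA+RT mouse 40, or, chosen after seeing the data, BA mouse 10, BA+RT mouse 37, control mouse 6 or BA+RT mouse 45, gave 1 to 3 members in RT against control, 1 to 2 in BA+RT against control and 0 to 3 in BA+RT against RT; the 0 came without BA+RT mouse 40, the 1 without BA+RT mouse 37. The cause was not tested.

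Signs changed only for values not called. Reference gene factors gave log2 fold changes of 0.0584 for Id1 and 0.0433 for Smad6 in BA+RT against BA, -0.0803 for Smad2, -0.0470 for Smad4, -0.0009 for Smad7 and -0.0460 for Tgif1 in BA+RT against RT, 0.0520 for Smad4, 0.0843 for Smad7 and 0.0818 for Tgif1 in RT against control, -0.0665 for Smad7 in BA against control, and 0.0050 for Smad4 and 0.0357 for Tgif1 in BA+RT against control. Library totals gave 0.0097 for Id1 in BA+RT against RT, 0.0070 for Smad4 and 0.0340 for Tgif1 in BA+RT against control, and -0.0025 for Smad7 in BA against control. Tgif1 in BA+RT against control was 0.0011 with DESeq2 and 0.0067 with limma. Without the filter Smad2 was -0.0032 in BA+RT against RT and Smad7 -0.0013 in BA against control. The other panel gave -0.0358 for Smad2 in BA against control, -0.0665 for Smad2 in BA+RT against RT and -0.0462 for Smad3 in BA+RT against BA. With 1 of those 6 mice left out, log2 fold changes ran from -0.0490 to 0.0460 for Smad3 and from -0.0322 to 0.0261 for Smad7 in BA against control, from -0.0051 to 0.0871 for Smad3 and from -0.0547 to 0.0163 for Tgif1 in BA+RT against control, from -0.0173 to 0.0155 for Smad2 in BA+RT against RT, and from -0.0133 to 0.1042 for Smad3 and from -0.1305 to 0.0171 for Smad6 in BA+RT against BA.

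No paired analysis was possible because mouse numbers are not shared between groups. Depth limits Smad6 most, with 24 to 112 counts a library, and counts cover amplification as well as sampling.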
